A study of Mus musculus with 18 samples.

Results

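Aggregates of *Tet1*, *Tet2*, *Tet3* triple knockout (TKO) cells collected at day 2 of culture without cytokines were compared with wild-type primordial germ cell-like cells (PGCLCs) collected at day 6 with cytokines, over all genes. Members were chosen by label: the 2 TKO libraries and the 2 wild-type libraries of those conditions, 4 of the 18 bulk RNA-seq libraries of the series, which hold 9 groups of 2. Of 25239 genes in the count table, 16582 had enough counts to be tested. The question that the comparison addresses is how near TKO cells that received no inductive cytokine come, at day 2, to the germ cell state of wild-type cells.

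Both genotypes are mouse embryonic stem cells (ESCs) of the male E14Tg2a line. TKO cells are 1 clone in which the coding part of each *Tet* gene had been cut out with a pair of guide RNAs, so a difference carried by that clone cannot be told apart from one due to the genotype. ESCs were first turned into epiblast-like cells (EpiLCs) with activin A and Fgf, and EpiLCs were then put into suspension in GK15 medium to form aggregates. Wild-type PGCLCs had BMP4, BMP8a, SCF, LIF and EGF from then on and were sorted, by the study's account, for the surface markers SSEA1 and CD61. The TKO aggregates had none of those factors and were collected whole. Genotype, day, cytokines and sorting therefore all change together, and their parts in any difference cannot be told apart. Further groups used below include day 2 TKO aggregates with the cytokines and day 6 TKO aggregates without them. Wild-type day 2 aggregates without cytokines and wild-type and TKO EpiLCs are used as well. In bulk libraries such as these, fewer cells of a type and less RNA per cell cannot be told apart. The labels do not say that replicates came from separate cultures, so p-values measure only the spread between the libraries.

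TET proteins are dioxygenases that oxidise 5-methylcytosine and so take part in removing DNA methylation. Primordial germ cells arise from the epiblast when BMP signals switch on *Prdm1*, *Prdm14* and *Tfap2c*, the transcription factor genes that start the germ cell programme. The nascent germ cells keep or regain pluripotency genes, switch off *Dnmt3b*, and later demethylate the promoters of genes that protect the germline genome. PGCLC culture copies these steps, and without the cytokines EpiLC aggregates mostly take somatic fates.

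Libraries of day 2 TKO aggregates without cytokines held 12872533 and 12100902 counts, and those of wild-type PGCLCs held 26130723 and 28810831, within a range of 11286050 to 41257861 over the series. The 45S ribosomal RNA precursor *Rn45s* took 16.2 and 20.9% of the TKO counts and 33.7 and 36.4% of the wild-type counts. With that gene left out and at a common depth of 7361336 counts, 18602.0 and 18405.9 genes would be detected in the TKO libraries and 17319.9 and 17703.2 in the wild-type ones. Levels below are normalised counts, that is counts divided by a size factor for each library, with replicate 1 before replicate 2 (n = 2 in each group). They compare libraries, not genes of different length.

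The TKO libraries made without cytokines stood apart from all others in rod photoreceptor and lens crystallin genes. A list of 23 rod photoreceptor genes, put together after these values were seen and so given with no test, summed to 3126 and 5711 normalised counts in the day 2 TKO libraries without cytokines. It summed to 4376 and 6184 in the day 6 TKO libraries without cytokines and to between 237 and 846.1 in the other 14 libraries. *Rbp3*, which encodes the retinoid-binding protein between photoreceptors and pigment epithelium, stood at 402 and 730.5 in the day 2 TKO libraries without cytokines. The gene had 1.13 and 1.24 with cytokines and was listed at 0 in both wild-type PGCLC libraries, which makes it at least 282-fold higher than in the latter, counted against a floor of 3 counts per library. Of the 23 genes, 20 lay above all 14 other libraries in both day 2 and both day 6 TKO libraries without cytokines. Lens crystallin genes showed the same order, with sums of 459 and 924 at day 2 against 53.5 to 181.4 in the other 14 libraries. Of the 15 tested of the 16 listed genes, 7 lay above all of these in both day 2 and both day 6 TKO libraries without cytokines. Both lists were chosen from these values, and the share of all genes that lay so was not taken. The counts of rod and lens genes therefore only describe the lists. The lens structural gene *Crybb2* had 90.3 and 232 normalised counts and was listed at 0 in both wild-type PGCLC libraries and both TKO libraries with cytokines. Both day 6 TKO libraries without cytokines had 129 and 193.

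Day 2 and day 6 TKO libraries without cytokines were also alike in general. Over 11997 genes with a mean of 50 or more normalised counts, log2 levels of the day 2 pair correlated at 0.965 to 0.972 with the day 6 pair. They correlated at 0.937 to 0.945 with day 2 TKO libraries with cytokines and at 0.884 to 0.909 with wild-type PGCLCs. With TKO EpiLCs the values were 0.899 to 0.908, within the range for wild-type PGCLCs, and with wild-type EpiLCs 0.866 to 0.870. All are given as a description across genes. Some genes that were low in TKO EpiLCs were also higher in the cytokine-free TKO libraries than in TKO libraries with cytokines. *Ddx3y*, a Y-linked RNA helicase gene, had 59.2 and 112 normalised counts without cytokines, 17.0 and 12.4 with them and 618 and 839.7 in wild-type PGCLCs. The imprinted gene *Mest* had 163 and 259.5 without and 14.7 and 9.93 with cytokines, and 249 and 431 in wild-type PGCLCs. Both were higher without than with cytokines, by 2.50 ± 0.47 (SE) and 4.05 ± 0.71 on the log2 scale, with adjusted p = 0.0092 and 0.0066. Whether this RNA came from cells of the aggregates, from carry-over or from a mix with another sample was not tested, nor was its part, and that of whatever moved *Ddx3y* and *Mest*, in the *Tet1*, *Tet3*, neural, crest, matrix and other values that follow. Counts of gene groups are therefore given beside those of the direct test, which sets day 2 TKO aggregates without cytokines against those with them.

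**Figure D1:**
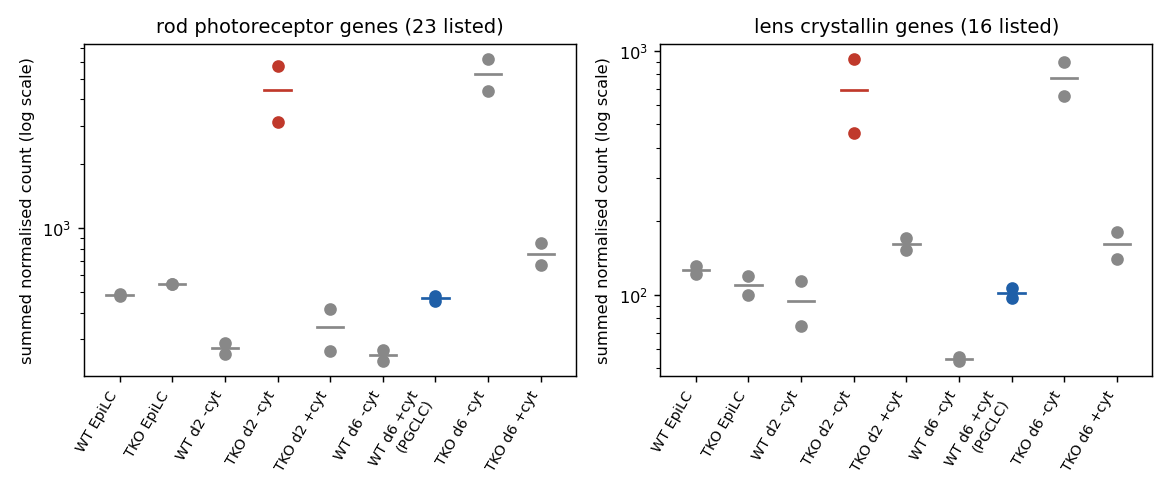
Summed normalised counts (log axis) of the rod photoreceptor list (23 genes) and the lens crystallin list (16 genes) in each library of the 9 groups, as points, with the group mean as a bar. The 4 TKO libraries without cytokines sit above the 14 other libraries for both lists, the day 2 pair at 3126 and 5711 for rod genes.

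Between day 2 TKO aggregates without cytokines and wild-type PGCLCs, 971 genes rose and 238 fell at adjusted p below 0.05 with a log2 fold change beyond 2, which is 5.86 and 1.44% of the 16582 genes tested (edgeR quasi-likelihood test, Benjamini-Hochberg adjustment). With no fold threshold 2152 genes (13.0%) were higher and 1833 (11.1%) lower, and these shares are the background for the gene groups below. Scaled by library size alone, the calls became 1518 higher and 126 lower and the median of all genes moved to 0.43 on the log2 scale. The median log2 fold change over all genes was 0.01 with the scaling used here. The 971 higher genes were mostly weakly expressed in wild-type PGCLCs, with a median of 4.23 normalised counts against 42.2 in the TKO libraries, and their median was 15.4 in TKO libraries with cytokines. In the 238 lower genes the median was 113.5 in wild-type PGCLCs, 15.4 in TKO libraries without cytokines and 16.5 with them. Of the higher genes 214 also passed the test against TKO libraries with cytokines, at adjusted p below 0.05 and in the same direction, where 409 genes (2.47%) of all those tested were higher and 340 (2.05%) lower. Leaving these 214 out left 757. Both tests use the same cytokine-free TKO libraries, so passing the second is not independent of passing the first. Of the genes that rose 443, and of those that fell 158, had a mean of 50 or more normalised counts. Calls depended on single libraries too. They fell to 487 higher without wild-type replicate 1, and to 639 higher and 114 lower without TKO replicate 2. Over the 4 libraries left out in turn the counts ran from 487 to 761 higher and from 114 to 179 lower, and such ranges stand in brackets after the gene groups with 4 or more members passing in a direction whose count they moved by over 1.5 times. That was so for 29 of 31 such counts. Counts of 1 to 3 members rest on few genes, and 17 of 22 moved by over 1.5 times without at least 1 library. In a fit of the 4 libraries alone, which has its own estimate of the spread, 26 of the 53 counts were over 1.5 times larger and 0 were smaller by as much.

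**Figure D2:**
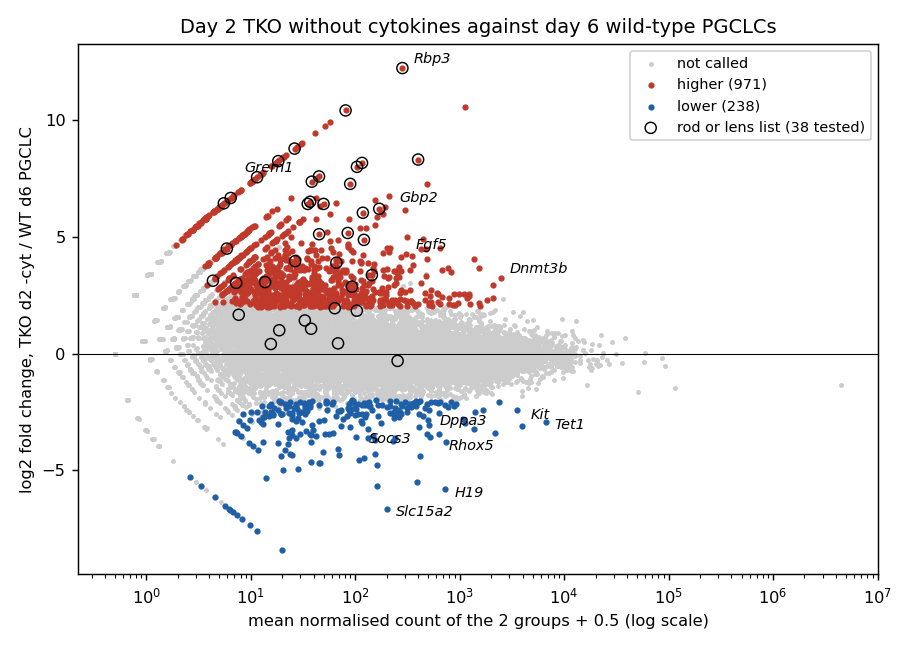
Log2 fold change of day 2 TKO aggregates without cytokines over wild-type PGCLCs against the mean normalised count of the 2 groups plus 0.5 (log axis), 1 point for each of 16582 genes. Red and blue points are the 971 higher and 238 lower genes and black circles mark tested rod and lens genes, which lie mostly at the upper edge.

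The targeted genes were examined first. *Tet1* had 1937 and 1200.3 normalised counts in the TKO libraries without cytokines and 12106 and 11504 in wild-type PGCLCs, a log2 difference of -2.94 ± 0.33 (SE), adjusted p = 4.8e-05. *Tet2* had 355 and 405 in TKO and 3114 and 4812 in wild-type libraries, a difference of -3.41 ± 0.46 (SE), adjusted p = 1.8e-04. Both groups were far apart for these genes. For *Tet1*, wild-type day 2 aggregates without cytokines had 2027.5 and 1754.3, a range that overlaps that of the TKO libraries of the same condition. *Tet3* did not separate TKO aggregates from wild-type PGCLCs, with 165 and 238 in TKO and 171 and 330.1 in wild-type PGCLC libraries (adjusted p = 0.45). In EpiLCs, where wild-type *Tet3* is higher, TKO cells had a log2 difference of -2.64 ± 0.32 (SE, adjusted p = 2.2e-04). TKO libraries with cytokines held less of *Tet1* (623 and 589.6) and *Tet3* (62.3 and 54.6) than those without, with adjusted p = 0.029 and 0.011. On mm10, with GENCODE M21 positions, *Tet1* lies at chr10:62804570-62908996, *Tet2* at chr3:133463679-133545139 and *Tet3* at chr6:83362373-83459084. Guides had been placed near the start and stop codons, so untranslated exons can still give reads, and levels are those of the whole gene.

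Among genes of the DNA methylation machinery, 2 of 20 tested were higher and 7 lower (1 higher whichever of the 4 libraries was left out, 3 lower without TKO replicate 1, TKO replicate 2 or wild-type replicate 1). In the direct test 0 were higher and 1 lower. *Dnmt3b*, which encodes a de novo methyltransferase of the post-implantation epiblast, reached 3916 and 5097 normalised counts in TKO aggregates without cytokines against 437 and 494 in wild-type PGCLCs. That is 3.25 ± 0.29 (SE), adjusted p = 8.2e-06 on the log2 scale, and the 4 TKO libraries of day 2 with and without cytokines all lay above both wild-type ones. *Uhrf1*, whose product brings the maintenance methyltransferase to replicating DNA, had 4668 and 5045 in TKO and 2997 and 3709 in wild-type libraries and did not pass (adjusted p = 0.11).

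Germ cell specification genes were more often lower than higher. Of 27 tested genes of this list, 13 were lower and 3 higher in the cytokine-free TKO aggregates, with a median log2 fold change of -0.89 (8 lower without TKO replicate 2 or wild-type replicate 1). The direct test gave 1 higher and 0 lower. *Nanog*, a pluripotency factor gene that germ cells also use, had 6585 and 5398 normalised counts in TKO and 6537 and 7239 in wild-type libraries, ranges that overlap (adjusted p = 0.57). For *Prdm14*, the germ cell regulator that represses methyltransferase genes, the values were 788 and 740.1 in TKO and 1295 and 1046 in wild-type libraries. These groups did not overlap, as was so for 73.7% of all genes tested, and the difference of -0.64 ± 0.33 (SE, log2) did not pass (adjusted p = 0.18). The *Prdm14* difference passed in 1 of the 8 alternatives run for single genes.

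The other regulators of the trio were lower. *Prdm1*, which encodes BLIMP1, a repressor of the somatic programme, had 611 and 381 in TKO and 1899.6 and 1755 in wild-type libraries (-1.90 ± 0.33 (SE), adjusted p = 9.7e-04). *Tfap2c*, which encodes AP2γ, had 1789 and 1544 in TKO and 4013 and 2851 in wild-type libraries (-1.07 ± 0.23 (SE), adjusted p = 0.0036). The *Tfap2c* call was lost when wild-type replicate 1 (adjusted p = 0.070) or TKO replicate 2 was left out, and with scaling by library size alone. *Prdm1* kept its call in all 8 alternatives run for single genes.

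*Dppa3*, the maternal factor gene also called *Stella*, showed the largest fall in this list. It had 105 and 58.9 in TKO against 901 and 871 in wild-type libraries (-3.45 ± 0.42 (SE), adjusted p = 7.6e-05). With cytokines TKO cells had 197 and 137, which the test did not separate from the cytokine-free ones (adjusted p = 0.14). *Kit*, the receptor for SCF, fell by 3.12 ± 0.51 (SE, log2, adjusted p = 6.6e-04), from 7481 and 6649 to 1027 and 629.6. In cytokine-treated TKO libraries it stood at 800.1 and 1746, again well below the wild-type ones.

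*Itgb3*, which encodes the sort marker CD61, was lower in the unsorted TKO aggregates, with a log2 difference of -1.52 ± 0.43 (SE, adjusted p = 0.018), but lost the call without TKO replicate 2 (adjusted p = 0.17), without wild-type replicate 1, or with library size alone. *Nanos3*, an RNA-binding protein gene of migrating germ cells, had a difference of -1.94 ± 0.39 (adjusted p = 0.0027), and without wild-type replicate 1 its adjusted p was 0.055. *Tfap2a*, the AP2α gene of surface ectoderm and neural crest, was one of the 3 that rose, from 23.6 and 48.3 to 325 and 544, and it was also higher than the 75.9 and 84.4 of TKO libraries with cytokines (adjusted p = 0.0013).

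**Figure D3:**
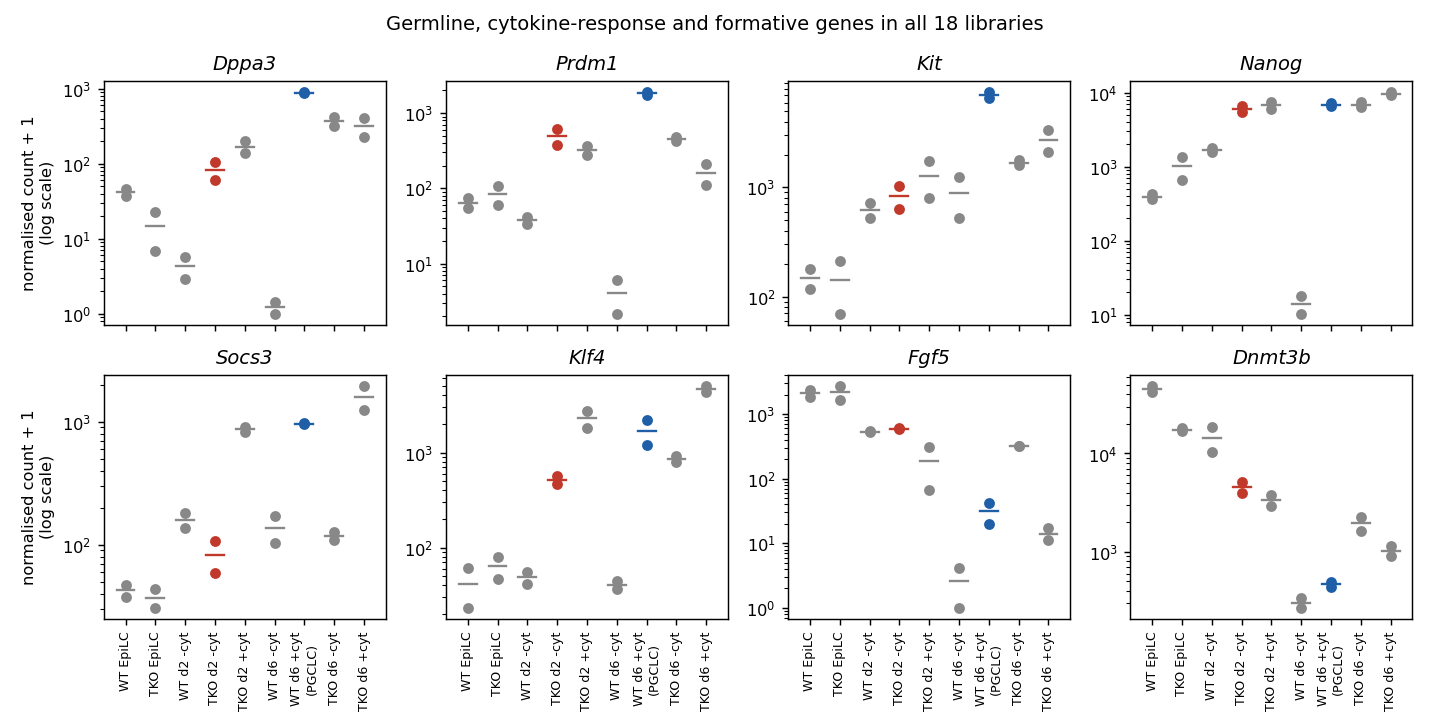
Normalised counts plus 1 (log axis) of 8 genes in each library of the 9 groups, as points, with the group mean as a bar. In day 2 TKO libraries without cytokines *Socs3* sits at 58.1 and 106 and *Dppa3* at 105 and 58.9, below wild-type PGCLCs, while *Fgf5* and *Dnmt3b* sit above them and *Nanog* overlaps them.

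Late germline and meiosis genes moved both ways, with 10 higher and 7 lower of 40 tested and a median of 0.02 (6 higher without TKO replicate 2, 2 lower without TKO replicate 2, 4 lower without wild-type replicate 1), and 1 higher and 0 lower in the direct test. *Mael*, a gene of the pathway that silences transposons through piRNAs, had 432 and 369 in TKO and 73.0 and 86.2 in wild-type libraries (2.30 ± 0.29 (SE), adjusted p = 1.4e-04). *Sycp3* and *Sycp2*, which encode the axis of the meiotic chromosome, were higher by 1.47 ± 0.31 and 2.43 ± 0.45 on the log2 scale (adjusted p = 0.0038 and 0.0016). None of these 3 genes differed detectably between TKO libraries with and without cytokines (adjusted p = 0.39, 0.46 and 0.13). *Sohlh2*, a transcription factor gene of young spermatogonia and oocytes, went the other way, from 695 and 716 in wild-type to 102 and 136 in TKO libraries (-2.60 ± 0.29 (SE), adjusted p = 4.1e-05).

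*Dazl* and *Ddx4*, both RNA regulators of germ cells that have reached the gonad, had log2 differences of -2.03 and 1.28 (adjusted p = 0.0059 and 0.0089). Both calls rested on single libraries, since *Dazl* had adjusted p = 0.061 without TKO replicate 2 and *Ddx4* had 0.092 without wild-type replicate 2, and *Ddx4* also lost the call without TKO replicate 2. Genes of the piRNA pathway were 3 higher and 5 lower of 21 tested (3 lower without TKO replicate 1 or wild-type replicate 1, 2 lower without TKO replicate 2), and 0 in either direction in the direct test. *Fkbp6*, a co-chaperone of piRNA loading, fell from 311 and 318 to 5.19 and 7.21 (-5.67 ± 0.64 (SE), adjusted p = 6.3e-05), whereas *Tdrd1*, a scaffold of the same pathway, rose from 35.5 and 34.1 to 213 and 216 (2.59 ± 0.47 (SE), adjusted p = 0.0013). *Piwil2* had 321 and 353 in TKO and 470.0 and 405 in wild-type libraries and did not pass (adjusted p = 0.28).

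Reproductive homeobox (*Rhox*) and *Xlr* genes of the X chromosome were mostly lower, 9 of 11 tested passing in this direction and none in the other (4 lower without TKO replicate 2), with a median of -2.95 (-2.91 with genes at 0 set to their bound). *Rhox5* had 77.8 and 141 in TKO and 1363 and 961 in wild-type libraries (-3.44 ± 0.31 (SE), adjusted p = 8.2e-06), and *Rhox13* had 5.19 and 4.81 in TKO and 73.7 and 110.0 in wild-type libraries (-4.19 ± 0.72 (SE), adjusted p = 0.0011). TKO libraries with cytokines were low for *Rhox5* too, at 89.5 and 98.1, and 0 genes of the list passed in the direct test. Many *Rhox* and *Xlr* genes are near-identical copies, and reads that map to several places were not counted, so values of single members are uncertain. Of all called genes with a known position, 8.15% of the higher and 7.17% of the lower ones lie on the X chromosome, against 3.76% of the genes tested.

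Targets of the withheld cytokines were examined next. LIF acts through the receptor genes *Lifr* and *Il6st* and the transcription factor STAT3, and 10 of 21 tested genes of this pathway were lower and 1 higher, with a median of -0.72 (5 to 6 lower whichever of the 4 libraries was left out). In the direct test 0 higher and 6 lower passed between TKO aggregates without and with cytokines. *Socs3*, the feedback inhibitor that STAT3 switches on, had 58.1 and 106 normalised counts in TKO aggregates without cytokines. Wild-type PGCLCs had 949 and 973 and TKO aggregates with cytokines 910.0 and 828, so both cytokine-treated groups lay well above the cytokine-free one. The log2 differences were -3.59 ± 0.33 (SE), adjusted p = 8.2e-06 against wild-type and -3.43 ± 0.32 (SE), adjusted p = 7.1e-05 against TKO with cytokines. *Klf4*, a STAT3-responsive naive pluripotency gene, had 462 and 569.5 without cytokines, 2748 and 1815 in TKO with them and 1185 and 2212 in wild-type PGCLCs. It was lower than in both (-1.75 ± 0.34 (SE), adjusted p = 0.0023, and -2.16 ± 0.35 (SE), adjusted p = 0.0038).

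Besides *Socs3*, the named genes *Klf4*, *Gadd45b* and *Igf2* passed as lower than in both cytokine-treated groups, and their promoters are not shown. The promoter of *Socs3* was picked by hand as an example. Its RefSeq window on GRCm38.p6, 250 bases before to 50 after the start, is written 5′ to 3′ along the gene, and capitals mark the single TTCNNNGAA, the palindromic letters that STAT factors bind, which reads the same way on both strands. It begins 154 bases before the start, and 8.30% of 32851 such windows hold these letters.
Socs3 (chr11:117969317-117969616, minus strand): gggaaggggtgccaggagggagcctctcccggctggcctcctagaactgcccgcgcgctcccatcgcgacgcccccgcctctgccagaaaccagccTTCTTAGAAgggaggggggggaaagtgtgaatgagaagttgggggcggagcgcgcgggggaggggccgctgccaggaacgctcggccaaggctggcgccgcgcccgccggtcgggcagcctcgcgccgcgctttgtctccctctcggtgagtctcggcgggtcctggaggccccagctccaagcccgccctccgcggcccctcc
The match is a description of the letters and was not tested for binding.

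BMP targets gave another picture. *Id1*, a direct target of BMP signalling, had 199 and 314 without cytokines and 1947 and 2266 in TKO aggregates with them, a fall of 3.06 ± 0.64 (SE, log2, adjusted p = 0.016). Wild-type PGCLCs at day 6 also had only 298 and 254, and the test against them did not pass (adjusted p = 0.9). Of 28 tested BMP pathway genes 6 passed upward and 2 downward against wild-type PGCLCs (3 higher without TKO replicate 1, TKO replicate 2 or wild-type replicate 1, 0 lower whichever of the 4 libraries was left out), and 3 upward and 1 downward in the direct test. The BMP antagonist genes *Nog* and *Grem1* were among those that rose, *Nog* from 2.78 and 6.43 to 72.6 and 150.2 (4.52 ± 0.63 (SE), adjusted p = 2.1e-04). *Grem1* had 78.9 and 90.1 against 0 and 0.643, at least 42.1-fold higher, and was listed at 0 in both TKO libraries with cytokines.

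Receptor and ERK feedback genes for EGF, SCF and FGF were 10 higher and 4 lower of 31 tested (1 to 6 higher whichever of the 4 libraries was left out), and 2 higher and 0 lower in the direct test. *Dusp4*, a phosphatase gene that dampens ERK, fell from 2918 and 2019 to 265 and 279.9 (-3.21 ± 0.47 (SE), adjusted p = 3.2e-04), while *Dusp6* and *Spry4*, other ERK feedback genes, did not pass (adjusted p = 0.17 and 0.55). Immediate early and stress genes were 4 higher and 9 lower of 25 (2 higher without TKO replicate 2, wild-type replicate 1 or wild-type replicate 2, 3 lower without TKO replicate 1, 2 lower without TKO replicate 2, 4 lower without wild-type replicate 1), with 0 higher and 4 lower in the direct test. The AP-1 gene *Fos* had 11.4 and 19 in TKO and 191 and 394 in wild-type libraries (-4.28 ± 0.83 (SE), adjusted p = 0.002), and *Ier3* fell by 3.60 ± 0.62 (SE, log2, adjusted p = 9.0e-04).

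Formative and primed pluripotency genes, those of the EpiLC and the post-implantation epiblast, were 15 higher and none lower of 32 tested, with a median of 1.39 (9 higher without wild-type replicate 1), and 4 higher and 0 lower in the direct test. *Fgf5*, the classic epiblast marker, had 601 and 577 in TKO aggregates without cytokines and 41.7 and 18.7 in wild-type PGCLCs (4.26 ± 0.56 (SE), adjusted p = 1.3e-04). *Pou3f1*, which encodes the epiblast factor OCT6, had 340.4 and 576 in TKO and 40.3 and 41.8 in wild-type libraries (3.44 ± 0.33 (SE), adjusted p = 1.1e-05). *Sall2*, a zinc finger gene of the epiblast and nervous system, had 1381 and 1096 in TKO and 41 and 63.1 in wild-type libraries (4.54 ± 0.33 (SE), adjusted p = 2.0e-06). All 3 genes had lower values in TKO libraries with cytokines, at 308 and 65.8 for *Fgf5*, 235 and 117 for *Pou3f1* and 645 and 484 for *Sall2*. The direct test passed for *Pou3f1* and *Sall2* (adjusted p = 0.019 and 0.035) and did not for *Fgf5* (0.064). *Otx2*, whose product restrains germ cell entry, had 1163 and 986 in TKO and 308 and 317 in wild-type libraries. Its groups did not overlap, yet the difference of 1.76 ± 0.86 (SE, log2) did not pass (adjusted p = 0.15).

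Naive pluripotency genes had few calls, with 1 higher and 4 lower of 23 tested and a median of -0.43 (2 lower without TKO replicate 2, 12 lower in the fit of the 4 libraries alone), and 0 higher and 1 lower in the direct test. *Tcl1*, a cofactor of AKT in ESCs, fell from 1399.7 and 1315 to 416 and 306 (-1.93 ± 0.29 (SE), adjusted p = 4.1e-04). *Zfp42* and *Klf2* had log2 differences of -0.74 and -0.45 and *Esrrb* had 4627 and 3886 normalised counts against 8563 and 8172, and these did not pass (adjusted p = 0.069, 0.47 and 0.26).

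Somatic marker genes were higher in part, in the same libraries that held rod and lens RNA. Of 39 tested neural genes 10 were higher and 2 lower, with a median of 1.39 (5 higher without TKO replicate 2, 4 higher without wild-type replicate 1). Against TKO aggregates with cytokines 4 higher and 0 lower passed. *Tubb3*, the neuronal tubulin gene, had 1081 and 1497 in TKO and 314 and 261 in wild-type libraries (2.14 ± 0.34 (SE), adjusted p = 5.4e-04). *Irx3*, a patterning gene of the neural plate, had 101 and 112 in TKO and 22.9 and 22.5 in wild-type libraries (2.19 ± 0.35 (SE), adjusted p = 6.1e-04). The neural regulators *Sox1*, *Pax6* and *Neurog2* did not pass (adjusted p = 0.11, 0.87 and 0.86).

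Neural crest and epithelial-mesenchymal genes were 10 higher and 3 lower of 27 (0 to 2 lower whichever of the 4 libraries was left out), and 5 higher and 2 lower in the direct test. *Zeb2*, a repressor of epithelial genes, had 204 and 288 without cytokines, 53.3 and 34.8 in TKO with them and 14.6 and 17.4 in wild-type PGCLCs (3.90 ± 0.37 (SE), adjusted p = 1.2e-05 against wild-type). *Ednrb*, a receptor gene of migrating crest cells, had 98.6 and 148 without cytokines, 20.4 and 29.8 in TKO with them and 9.04 and 5.79 in wild-type PGCLCs (4.01 ± 0.50 (SE), adjusted p = 1.1e-04). The epithelial gene *Cdh1* was also higher, at 7405 and 7726 against 2949 and 3721 (1.2 ± 0.20 (SE), adjusted p = 0.0011), so markers of both states moved up. Its level did not differ detectably from that with cytokines (adjusted p = 0.85).

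Extracellular matrix genes were 13 higher and 4 lower of 33 (8 higher without wild-type replicate 1, 2 lower without TKO replicate 2 or wild-type replicate 2), and 5 higher and 0 lower in the direct test. Their median of 0.58 became -0.01 without wild-type replicate 1 and 1.49 without wild-type replicate 2. *Col1a1*, a collagen gene of mesoderm and connective tissue, had 1087 and 1928 normalised counts, against 35.5 and 223 in wild-type PGCLCs (3.51 ± 0.58 (SE), adjusted p = 7.4e-04) and 75.9 and 69.5 in TKO aggregates with cytokines (4.35 ± 0.63 (SE), adjusted p = 0.0018). *Lama1*, a basement membrane laminin gene, fell from 1219 and 1537 to 122 and 82.9 (-3.76 ± 0.43 (SE), adjusted p = 4.9e-05). Primitive streak and mesoderm genes were 8 higher and 1 lower of 31 (3 to 4 higher whichever of the 4 libraries was left out), and 2 higher and 0 lower in the direct test. *Foxc1*, a mesenchyme regulator, rose from 7.65 and 10.3 to 86.1 and 142 (3.62 ± 0.53 (SE), adjusted p = 3.3e-04), and the streak gene *T* had adjusted p = 0.049, lost without any 1 of the 4 libraries and with DESeq2. *Eomes* and *Kdr* did not pass (adjusted p = 0.9 and 0.74).

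Endoderm genes were 4 higher and 3 lower of 28 (2 higher without TKO replicate 2, 1 higher without wild-type replicate 1), and blood and endothelium genes 2 and 2 of 17. The direct test gave 1 lower endoderm gene and 0 of the blood list. *Cxcr4*, a chemokine receptor gene of endoderm and of migrating germ cells, fell from 211 and 166 to 19.7 and 12 (-3.57 ± 0.40 (SE), adjusted p = 4.5e-05). The germ layer marker gene *Gata4* rose from 20.2 and 36.0 to 157 and 120 (2.27 ± 0.50 (SE), adjusted p = 0.0048), a call lost without wild-type replicate 1. It was also higher in TKO than in wild-type EpiLCs, by 4.10 ± 0.64 (SE, log2, adjusted p = 0.0013). *Sox17* and *Gata6* did not pass (adjusted p = 0.54 and 0.12). Trophoblast and simple keratin genes were 6 higher and 1 lower of 18 (3 higher without TKO replicate 2 or wild-type replicate 1), and 2 higher and 2 lower in the direct test. *Krt8*, a keratin gene of simple epithelia, had 847 and 1656 without cytokines and 52.8 and 152 in wild-type PGCLCs (3.58 ± 0.60 (SE), adjusted p = 8.2e-04), with more again in TKO with cytokines, at 3561 and 3186 (adjusted p = 0.12 without against with).

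*Hox* cluster genes, which pattern the trunk, were 9 higher and none lower of 30 tested, with a median of 1.33, or 0.96 with genes at 0 in wild-type PGCLCs set to their bound (2 higher without TKO replicate 1 or wild-type replicate 1, 5 higher without TKO replicate 2). Clustered protocadherin genes, which label single neurons, were 4 higher and none lower of 50 (0 to 1 higher whichever of the 4 libraries was left out), a share of 8.0% that lies below the 13.0% of all genes. In the direct test 0 genes of either list passed.

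Markers of the transient 2-cell-like state of ESC cultures were 13 higher and none lower of 24, with a median of 1.52 (7 higher without wild-type replicate 1), and 0 in either direction in the direct test. *Zscan4d* had 120.4 and 129 in TKO and 9.04 and 14.8 in wild-type libraries (3.34 ± 0.42 (SE), adjusted p = 1.9e-04). With cytokines TKO libraries held 48.7 and 128, and the 2 TKO groups were not separated (adjusted p = 0.44). In EpiLCs the same gene was lower in TKO than in wild-type cells, with a log2 difference of -7.25 ± 1.3 (SE, adjusted p = 0.0042). *Zscan4* genes are near-identical copies, so single members are uncertain.

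Interferon-stimulated genes were 7 higher and 2 lower of 31 (3 higher without TKO replicate 2 or wild-type replicate 2), and 0 in the direct test. *Gbp2*, a guanylate-binding protein gene, had 269.8 and 559 in TKO aggregates without cytokines, 619.9 and 470.4 with them and 4.87 and 2.57 in wild-type PGCLCs (6.74 ± 0.77 (SE), adjusted p = 6.8e-05 against wild-type). *Samd9l*, another antiviral gene, had 640.3 and 589.9 without and 271 and 428 with cytokines in TKO and 54.2 and 45.7 in wild-type libraries (3.59 ± 0.40 (SE), adjusted p = 4.5e-05), and it was higher in TKO EpiLCs too, by 4.62 ± 0.54 (adjusted p = 2.2e-04).

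Imprinted genes, expressed from 1 parental copy, went both ways, 9 higher and 8 lower of 38 (4 higher without wild-type replicate 1, 5 higher without wild-type replicate 2, 3 to 5 lower whichever of the 4 libraries was left out), and 2 higher and 1 lower in the direct test. *H19*, a maternally expressed RNA, fell from 1198 and 1669 to 21.8 and 30.0 (-5.82 ± 1.02 (SE), adjusted p = 0.0011), and *Peg3*, a paternally expressed zinc finger gene, from 3425 and 2631 to 923 and 1008 (-1.68 ± 0.26 (SE), adjusted p = 4.8e-04). *Igf2*, the growth factor gene next to *H19*, had 107 and 113 in TKO against 217 and 1602 in wild-type libraries. Its adjusted p of 0.011 became 0.34 without wild-type replicate 2 and was also lost without either TKO library, and its wild-type libraries were far apart.

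Hypoxia and glycolysis genes were 1 higher and 8 lower of 30, with a median of -0.78 (2 to 3 lower whichever of the 4 libraries was left out, 21 lower in the fit of the 4 libraries alone), and 0 in the direct test. *Vegfa*, the endothelial growth factor gene induced by low oxygen, had 399 and 459 in TKO and 2482 and 2275 in wild-type libraries (-2.50 ± 0.53 (SE), adjusted p = 0.0036), and *Ankrd37*, a HIF target, fell by 3.62 ± 0.74 (SE, log2, adjusted p = 0.0029). *Pgk1*, *Ldha* and *Slc2a1* did not pass (adjusted p = 0.6, 0.63 and 0.36). Targets of p53 were 4 higher and none lower of 17 (1 higher without TKO replicate 2, wild-type replicate 1 or wild-type replicate 2), and 0 in the direct test. *Eda2r*, a receptor gene that p53 induces, had 1804 and 2325 in TKO and 636 and 737 in wild-type libraries (1.56 ± 0.29 (SE), adjusted p = 0.0015), while *Cdkn1a* and *Mdm2* did not pass (adjusted p = 0.76 and 0.18).

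Housekeeping groups had few calls, in numbers that depended on the fit. Ribosomal protein genes were 1 higher and 3 lower of 80, with a median of -0.27 (0 higher whichever of the 4 libraries was left out, 1 lower without TKO replicate 2). Replication-dependent histone genes were 6 higher and 3 lower of 56, with a median of -0.02 (3 higher without TKO replicate 2, 2 higher without wild-type replicate 1, 0 lower whichever of the 4 libraries was left out). In the fit of the 4 libraries alone the counts became 7 higher and 33 lower for ribosomal and 16 higher and 18 lower for histone genes. The direct test gave 0 higher and 4 lower ribosomal genes and 1 higher and 13 lower histone genes. The higher one was *H2bc21*, a histone gene whose RNA can be polyadenylated, at 95.5 and 165 without cytokines, 7.93 and 13.7 with them and 11.8 and 14.2 in wild-type PGCLCs. *Mage* and other cancer-testis genes were 4 higher and 1 lower of 12 (0 to 1 higher whichever of the 4 libraries was left out), and Y chromosome genes 1 and 1 of 8 (0 higher whichever of the 4 libraries was left out). In the direct test 1 gene of the former list was lower and 1 of the latter higher.

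**Figure D4:**
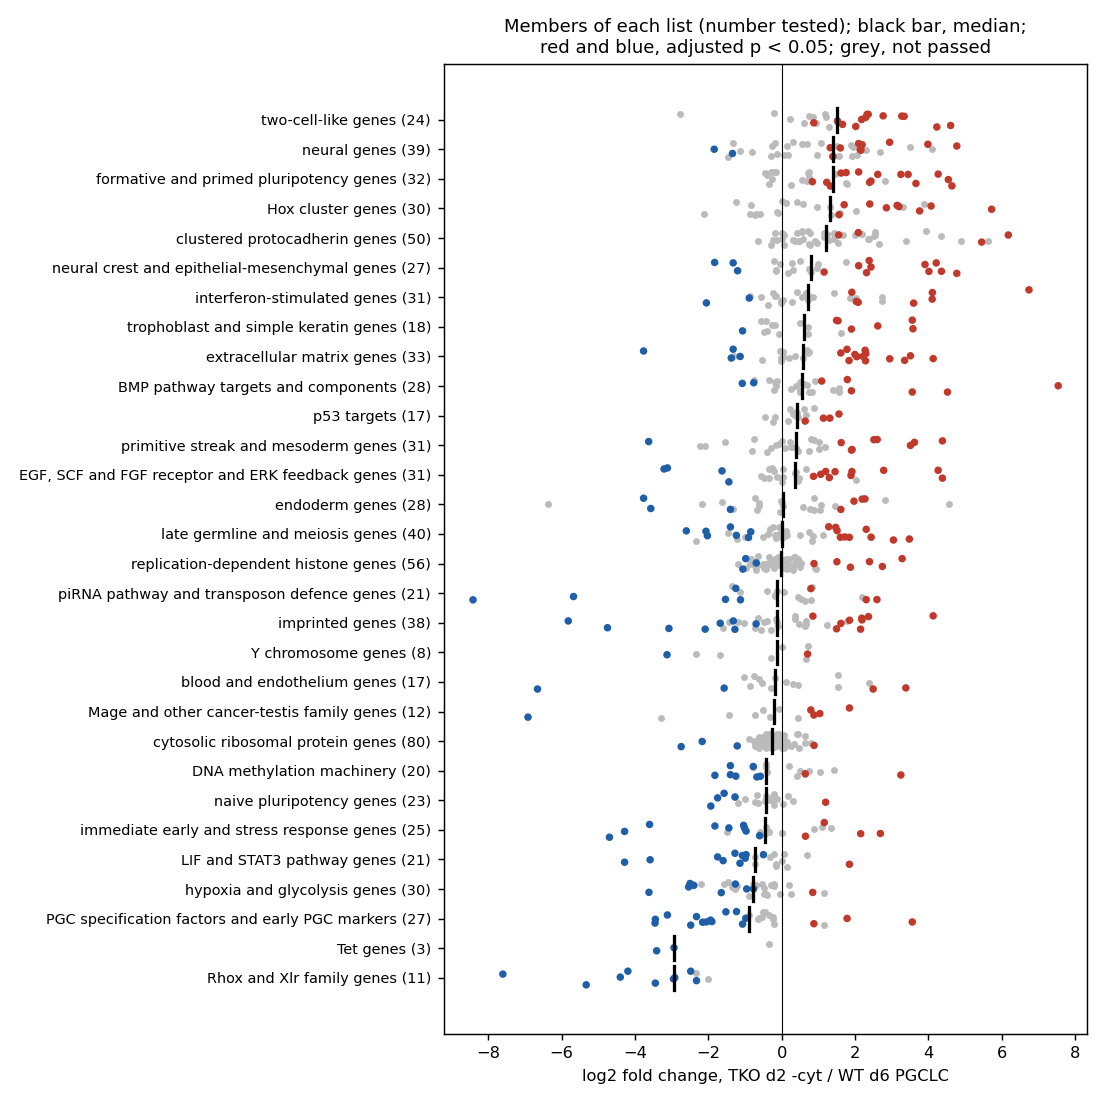
Log2 fold changes of day 2 TKO aggregates without cytokines over wild-type PGCLCs for the tested members of 30 gene lists, 1 point per gene, with list medians as black bars. Red and blue points passed at adjusted p below 0.05, and medians run from -2.95 for *Rhox* and *Xlr* genes to 1.52 for 2-cell-like genes, with the *Tet* genes at -2.94.

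The same clone was compared with wild-type cells as EpiLCs, in libraries that the PGCLC comparison does not use. There 1255 genes (7.57%) were higher and 528 (3.18%) lower in TKO at adjusted p below 0.05. Of the 971 higher genes in the aggregates, 115 were also higher in TKO EpiLCs, which is 11.8% of the former and 9.16% of the latter list, and 30 were lower. Of the 238 lower genes, 23 were also lower in TKO EpiLCs (9.66 and 4.36% of the 2 lists) and 12 were higher. A shared subset of 49 genes passed a log2 fold change beyond 2 in both comparisons with a mean of 50 or more normalised counts, 35 higher and 14 lower.

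The lower genes of this subset are led by 4 that were low in TKO EpiLCs and in both TKO groups of day 2. *Slc15a2*, a peptide transporter gene, had 2.08 and 6.01 normalised counts in cytokine-free TKO aggregates and 355 and 438 in wild-type PGCLCs (-6.64 ± 0.67 (SE), adjusted p = 1.7e-05), and in EpiLCs the log2 difference was -3.79 ± 0.70 (adjusted p = 0.0035). *Fkbp6*, given above, had a log2 difference of -3.42 ± 0.60 in EpiLCs (adjusted p = 0.0031). *D2hgdh*, a mitochondrial dehydrogenase gene that clears D-2-hydroxyglutarate, had 8.30 and 9.61 in TKO and 202 and 211 in wild-type libraries (-4.54 ± 0.38 (SE), adjusted p = 5.0e-06), and *Mgmt*, a DNA repair gene for alkylated guanine, had 9.34 and 12 in TKO and 261 and 203 in wild-type libraries (-4.46 ± 0.68 (SE), adjusted p = 4.1e-04). In EpiLCs their log2 differences were -5.25 and -5.53 (adjusted p = 8.7e-06 and 0.0011). TKO aggregates with cytokines were low too, with 1.13 and 2.48 for *D2hgdh* and 0 and 9.93 for *Mgmt*. Day 6 TKO aggregates with cytokines held more of some of them, with 40.3 and 23 for *D2hgdh*, 28.6 and 51.7 for *Mgmt* and 11.8 and 54.0 for *Fkbp6*. *Rhox5*, *Rhox13*, *Ddx3y* and *Tet1* also belong to the 14.

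Promoters of the 4 leading genes are shown because a CG dinucleotide is where TET proteins and methyltransferases act. Each is the RefSeq window on GRCm38.p6 from 250 bases before to 50 after the start, the first listed one for *Fkbp6* and *Mgmt*, written 5′ to 3′ along the gene with every CG in capitals.
Slc15a2 (chr16:36784913-36785212, minus strand): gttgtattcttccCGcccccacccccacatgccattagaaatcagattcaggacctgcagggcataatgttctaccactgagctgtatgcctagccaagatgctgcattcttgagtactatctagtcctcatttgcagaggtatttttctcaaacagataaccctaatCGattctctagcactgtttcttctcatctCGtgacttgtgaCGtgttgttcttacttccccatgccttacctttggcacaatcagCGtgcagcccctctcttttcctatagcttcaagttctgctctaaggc
Fkbp6 (chr5:135349995-135350294, minus strand): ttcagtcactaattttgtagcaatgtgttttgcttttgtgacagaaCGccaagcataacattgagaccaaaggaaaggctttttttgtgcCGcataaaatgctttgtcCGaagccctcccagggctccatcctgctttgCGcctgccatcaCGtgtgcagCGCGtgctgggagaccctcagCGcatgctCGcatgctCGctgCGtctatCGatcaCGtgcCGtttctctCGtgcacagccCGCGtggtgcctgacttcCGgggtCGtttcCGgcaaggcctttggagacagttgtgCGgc
D2hgdh (chr1:93824990-93825289, plus strand): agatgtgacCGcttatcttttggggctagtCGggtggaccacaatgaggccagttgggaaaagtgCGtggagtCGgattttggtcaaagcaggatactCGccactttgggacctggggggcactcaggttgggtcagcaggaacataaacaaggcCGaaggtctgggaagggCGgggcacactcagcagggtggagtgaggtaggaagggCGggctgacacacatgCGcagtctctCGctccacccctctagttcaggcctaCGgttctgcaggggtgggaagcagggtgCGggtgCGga
Mgmt (chr7:136894336-136894635, plus strand): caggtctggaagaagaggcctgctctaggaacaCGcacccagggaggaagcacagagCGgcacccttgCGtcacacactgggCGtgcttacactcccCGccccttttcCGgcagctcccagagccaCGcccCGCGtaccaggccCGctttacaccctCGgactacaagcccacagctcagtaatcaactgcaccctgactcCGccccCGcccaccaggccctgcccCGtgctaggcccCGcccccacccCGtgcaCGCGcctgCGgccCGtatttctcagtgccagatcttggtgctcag
These windows hold 5, 21, 13 and 20 CGs, against a median of 7 over all 32851 windows and of 19 over the 12819 tested genes with a window. The 14 lower genes had a median of 13 (5 to 21), and 28 of the 35 higher ones that matched a window had a median of 8.5. No methylation was measured in the libraries used here, and the letters say nothing of the state of these sites.

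**Figure D5:**
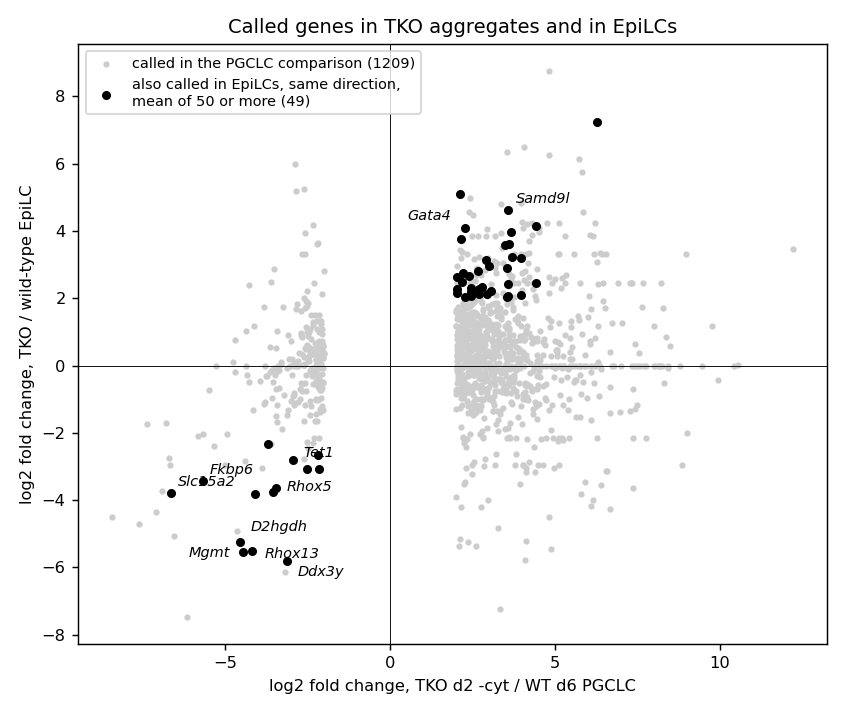
Log2 fold change of TKO over wild-type EpiLCs against that of day 2 TKO aggregates without cytokines over wild-type PGCLCs, 1 point for each of the 971 higher and 238 lower genes. Black points are the 49 genes called in the same direction in both with a mean of 50 or more, among them *Slc15a2*, *Fkbp6*, *D2hgdh* and *Mgmt* at the lower left.

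Other genes were far below the wild-type PGCLC level in TKO aggregates, and *Aire* and *Gstm3* among them were not separated in EpiLCs. Their EpiLC levels are not given here, so a gene near the floor in EpiLCs cannot be told from one without a difference. *Aire*, the autoimmune regulator gene, had 18.7 and 15.6 in cytokine-free TKO aggregates and 627 and 902 in wild-type PGCLCs (-5.49 ± 0.67 (SE), adjusted p = 7.7e-05), with adjusted p = 0.42 in EpiLCs. *Gstm3*, a glutathione transferase gene, had 38.4 and 39.6 in TKO and 855 and 742 in wild-type libraries (-4.38 ± 0.32 (SE), adjusted p = 2.0e-06), with 0.99 in EpiLCs. *Slc11a1*, a metal transporter gene, had 10.4 and 2.40 in TKO and 100.1 and 167 in wild-type libraries (-4.35 ± 0.73 (SE), adjusted p = 8.0e-04). In TKO aggregates with cytokines these genes were low as well, at 11.3 and 6.21 for *Aire*, 30.6 and 54.6 for *Gstm3* and 11.3 and 4.96 for *Slc11a1*. Whether the aggregate and EpiLC differences themselves differ was not tested.

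Among the highest genes outside the rod and lens lists were *Gabra3*, *Dlx5* and *Ptchd4*, all listed at 0 in both wild-type PGCLC libraries. *Gabra3*, a GABA receptor subunit gene, had 127 and 102 normalised counts without cytokines, at least 57.0-fold higher than in wild-type PGCLCs, and 46.5 and 44.7 in TKO with cytokines. *Dlx5*, a homeobox gene of ectoderm and skeleton, had 67.5 and 138 without and 0 and 4.96 with cytokines (at least 51.2-fold over wild-type), and *Ptchd4* had 34.2 and 87.7 without and 2.27 and 1.24 with them (at least 30.4-fold). *Dlx5* and *Ptchd4* passed the test without against with cytokines (adjusted p = 0.0086 and 0.0088), while *Gabra3* did not (0.15).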

How the data were processed

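Bulk RNA was sequenced from rRNA-depleted total RNA with a directional library kit. The deposited values are raw counts per gene, which the authors made with Trim Galore 0.5.0, cutadapt 1.16, STAR 2.7.1a on mm10 and featureCounts of Subread 1.5.2 over refGene exons, per the file headers and the labels. No strand option is named there, so a gene and its antisense partner cannot be told apart, and reads that map to several places were left out, which lowers near-identical copies. The last 33 rows of the table are command lines without values and were dropped. These name the TKO libraries without saying which had cytokines, so groups rest on the sample labels and column names.

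All 18 libraries were fitted in 1 model of 9 groups with edgeR 4.0.16 in R 4.3.3 (quasi-likelihood test, TMM scaling, filterByExpr by group). P-values were adjusted by Benjamini-Hochberg over the 16582 genes tested of 25239. Genes were called at adjusted p below 0.05 with a log2 fold change beyond 2, after the study's thresholds, and list members were counted at adjusted p below 0.05. Standard errors were approximated from the F statistic and the fold change. Levels are counts divided by DESeq2 1.42.0 size factors. A fold against a group at 0 was bounded with 3 counts per library. The fit was tested on simulated counts with known changes.

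Genes named are the core members of each list, the 3 members of each list with the largest change, and the 12 highest and 12 lowest of all genes, among those with adjusted p below 0.05, groups that do not overlap and a mean of 50 or more in the higher group. Core members are named whether they passed or not. Symbols beginning with Gm, Mir or LOC or ending in Rik were left out of that ranking. The text takes up part of them, and 2 genes that the rule names are not reported here. The rod list and the counts of named genes leave them out where they were members. Members, lists and tests were chosen with earlier results of these data known, and the retina and lens lists and the 49 genes shared with EpiLCs were chosen after values of this comparison were seen. Normalisation, tool, filter, thresholds, samples in the fit, a replicate block, *Rn45s* and each library were varied in turn.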

Additional observations from a re-analysis of the deposited data

Results flagged for a closer look

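Of 166 named genes tested, 35 differed between day 2 TKO aggregates without and with cytokines at adjusted p below 0.05 (edgeR, Benjamini-Hochberg over all genes), 30 higher and 5 lower without cytokines. This is the test of the difference between the 2 TKO groups' contrasts with the same wild-type PGCLCs. Values are log2 fold changes without over with cytokines.

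Rod photoreceptor genes led, with *Rp1* 10.78, *Rp1l1* 9.46, *Gucy2f* 8.98, *Cnga1* 8.79, *Rbp3* 8.75, *Gnat1* 7.53 and *Grk1* 7.45. The lens gene *Crybb2* had 10.43 and the BMP antagonist gene *Grem1* 9.50. Several of these genes were listed at 0 with cytokines, so the fitted sizes depend on the prior count and are no bounds. Mesenchyme, crest and matrix genes gave *Dlx5* 5.34, *Cdh6* 5.07, *Col1a1* 4.35, *Foxc1* 3.85, *Col5a2* 3.57, *Nog* 2.49, *Zeb2* 2.46, *Tfap2a* 2.42, *Ednrb* 2.27, *Wt1* 2.23 and *Vim* 2.06. Neural and epiblast genes gave *Lhx2* 2.50, *Tubb3* 1.40, *Pou3f1* 1.36 and *Sall2* 1.12. The remaining higher genes were *Ptchd4* 4.99, *Mest* 4.05, *H2bc21* 3.56, *Ddx3y* 2.50, *Tet3* 1.76 and *Tet1* 1.36. Those lower without cytokines were *Gadd45b* -1.76, *Klf4* -2.16, *Id1* -3.06, *Igf2* -3.30 and *Socs3* -3.43, of which *Socs3* and *Klf4* are STAT3 targets and *Id1* is a BMP target.

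Day 6 TKO aggregates without cytokines enter none of the tested contrasts, though they are in the fit and their values are described above. These aggregates also held rod and lens RNA. Their mean summed level was 5280.1 normalised counts for 23 rod genes and 775.0 for the lens crystallin genes, above the highest of 846.1 and 181.4 in the 14 other libraries. The part of this RNA in the differences between TKO groups was not tested.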

How the results depend on the processing

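The counts given here are of genes at adjusted p below 0.05 with a log2 fold change beyond 2 unless stated: 971 higher and 238 lower in day 2 TKO aggregates without cytokines against wild-type PGCLCs, 236 and 26 against TKO aggregates with cytokines, and 284 and 99 in TKO against wild-type EpiLCs. Scaling by library size alone gave 1518 and 126 in the first, 624 and 15 in the second, and 531 higher in the third. It moved the median of all genes from 0.01 to 0.43 on the log2 scale, and 21 of 30 list medians kept their sign, or 30 of 30 when taken relative to that median. With the fold threshold lowered to 1 there were 1698 higher and 956 lower in the first, 366 higher and 191 lower in the second, and 881 higher and 246 lower in the third. Without any fold threshold these became 2152 and 1833, 409 and 340, and 1255 and 528. With adjusted p below 0.01 there were 635 higher in the first, 85 and 13 in the second, and 125 and 43 in the third. A mean CPM of at least 1 left 156 lower in the first, no filter gave 41 lower in the second, and a fit of only the 4 libraries of the 2 groups gave 377 and 43 there. Leaving out each library in turn gave 487 to 761 higher and 114 to 179 lower in the first comparison, 41 to 128 and 9 to 17 in the second, and 113 to 290 and 51 to 90 in the third. The smallest counts came without wild-type PGCLC replicate 1 (487) and TKO replicate 2 (114), TKO with cytokines replicate 1 (41), TKO without cytokines replicate 1 (9), and wild-type EpiLC replicates 2 (113) and 1 (51). A mean of at least 50 normalised counts, chosen after seeing the data, left 443 and 158 in the first comparison. DESeq2, RLE scaling and leaving out *Rn45s* moved no count by over 1.5 times. Replicate numbers do not mark a shared culture or day in the labels. Same-numbered libraries of the compared groups did not deviate together (correlation of deviations 0.06, -0.01 and -0.07). Over all pairs of groups this correlation ran from -0.23 to 0.31, and it cannot tell whether same-numbered libraries shared a culture or day. With the replicate block 973 were higher and 239 lower in the first comparison, 227 and 25 in the second, and 275 and 107 in the third. Of 166 named genes tested, 92 kept their side of the threshold in all 8 alternatives run for single genes, and 51 lost a call in at least 1 of them. In the fit of the 4 libraries alone 22 gained a call and 0 lost one. Of the 119 that passed 0 changed sign, and of the 47 that did not pass 22 did. Depth limits the weak genes: of the 971 higher, 305 could only be bounded against a level of 3 counts or fewer per library.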

Other observations

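Further lists of differentiated tissues, put together after the rod and lens values were seen and given with no test, were read in the same libraries as summed normalised counts. Retinal pigment epithelium and melanocyte genes summed to 251.2 and 321 in day 2 TKO aggregates without cytokines, 139 and 78.2 with them and 158 and 194 in wild-type PGCLCs. Day 6 TKO aggregates without cytokines had 256 and 332, so both cytokine-free TKO pairs lay above every other library, as with the rod and lens lists. Cone photoreceptor genes summed to 332 and 382 in day 2 TKO aggregates without cytokines, 278 and 254 with them and 159 and 212 in wild-type PGCLCs. They summed to 591 and 701 in day 6 TKO aggregates with cytokines, above the day 2 cytokine-free pair, and to 315 and 327 in TKO EpiLCs. Inner retina and Müller glia genes, many of which other neural cells also use, summed to 3559 and 4241 in day 2 TKO aggregates without cytokines. With cytokines they summed to 4313 and 3663, and in wild-type PGCLCs to 2144 and 2365. The day 2 cytokine-free pair was thus not set apart from TKO aggregates with cytokines there, and wild-type day 6 aggregates without cytokines had 20181 and 10066. Adult liver and blood genes had 82.0 and 123 without and 62.3 and 67.0 with cytokines, and 18.1 and 1336 in wild-type day 6 aggregates without them.

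Skeletal and cardiac muscle genes summed to 3433 and 4769.9 in day 2 TKO aggregates without cytokines, 1747 and 1720.3 with them and 957 and 1649.9 in wild-type PGCLCs. Day 6 TKO aggregates without cytokines had 3874 and 4705, and wild-type aggregates of day 2 without cytokines had 3887 and 3750.1. The myosin genes *Myh1*, *Myh2* and *Myh4* had 20.8 to 54.1 in day 2 TKO aggregates without cytokines. They had 0 to 1.93 with cytokines and in wild-type PGCLCs, while *Myh3*, *Myh6* and *Myh7* had counts in each of these groups. Smooth muscle and serum response genes, which include cytoskeletal genes of many cells, summed to 28257 and 34684 without and 29129 and 34551 with cytokines in TKO aggregates and to 13217 and 12886 in wild-type PGCLCs, with 50331 and 49089 in wild-type day 2 aggregates without cytokines. Olfactory and vomeronasal receptor genes summed to 531 and 383 in day 2 TKO aggregates without cytokines, 240.2 and 225 with them and 199.6 and 225 in wild-type PGCLCs. In day 6 TKO aggregates with cytokines they summed to 566 and 735.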
